A study of Rattus norvegicus with 18 samples.

Results

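The comparison set livers of 3 rats that ate fish oil for life against livers of 3 rats that ate sunflower oil, all killed at 24 months. These 6 arrays are those whose titles name an old liver with either oil, out of 18 arrays in the series, and all 14217 genes were tested. All animals were male Wistar rats, match-fed from weaning on a semi-synthetic AIN-93 diet with 4% fat by weight, in which only the oil differed, and rationed after the first months. Rats of the same oils killed at 6 months (3 arrays each) and rats on virgin olive oil killed at 24 months (3 arrays) are set beside them where stated. Each array held RNA of 1 animal, from a piece of whole liver. The rats were housed 3 to a cage, and which animals shared one is not in the labels, so that a part of the cage in the differences was not tested.

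Sunflower oil is rich in linoleic acid, an n-6 polyunsaturated fatty acid, and fish oil is rich in eicosapentaenoic and docosahexaenoic acids, which are long-chain n-3 polyunsaturated fatty acids. In liver, long-chain polyunsaturated fatty acids are known ligands of the nuclear receptor PPAR-alpha, which drives genes of fatty acid oxidation. They also restrain SREBP-1c, the factor that drives genes of fatty acid synthesis and desaturation. The tissue holds mainly hepatocytes, with Kupffer cells, lymphocytes, endothelium and stellate cells among them. In RNA from whole tissue, more cells of a type and more RNA per cell cannot be told apart.

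The livers carried their label. Hepatocyte transcripts were bright in all 6, and the summed signal of the 9 measured hepatocyte markers ran from 63309 to 68216 with sunflower oil and from 56162 to 67606 with fish oil. One of the fish oil livers stood apart. On the first principal component of the 9 arrays at 24 months, which took 31.6% of the variance, the third fish oil liver lay at 56.9, the other fish oil livers at -0.6 and 8.1, and the sunflower oil livers between -17.3 and -7.5. It was the highest of the 6 arrays for 25.9% of genes and the lowest for 22%. The counts and genes that lead each result are therefore also given without it.

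No gene passed an adjusted p of 0.05 in the limma fit over all 18 arrays (0 of 14217, 0%). The smallest adjusted p was 0.0502. At an unadjusted p of 0.05, 1310 genes differed (9.21%), of which 886 were higher (6.23%) and 424 were lower (2.98%) with fish oil, and 32 of the higher and 2 of the lower genes had an adjusted p under 0.1. The arrays of the groups did not overlap for 1092 genes higher (7.68%) and 826 genes lower (5.81%) with fish oil. The median standard error of a difference was 0.211 on the log2 scale. The median 95% interval, not adjusted for the number of genes, reached 0.45 to either side. For a typical gene a smaller difference could not be told from 0 with 3 animals a group even without adjustment. Passing the adjusted threshold would take a larger difference than that. The count moved with the fit and with single livers. With all livers kept, 8 genes passed (0.0563%) with the sample number as a block, a pairing that the livers at 6 months showed and those at 24 months did not. These were Acot1, Cxcr3, Dusp2, Hdc, Laptm5, Myc, Prrg4 and Tpd52l1, all higher with fish oil. Array weights gave 20, and median centring, a minimum signal of 32 and a trended robust variance gave 5 each. Without the first fish oil liver 137 genes passed (0.964%), 136 higher and 1 lower, and without the first sunflower oil liver 12 passed. Without the third fish oil liver 0 passed. Leaving out the second fish oil liver at 6 months gave 4, and leaving out the third olive oil liver at 24 months gave 2. Differences below are fish minus sunflower oil in log2(signal + 16), ± the standard error from the fit over 18 arrays without block or weights, and signals are the deposited array values. Since no gene passed in that fit, they are given as values and not as changes. The adjusted p with the block is also given, but only for genes that passed with it. Coro1a, Spn, Cd7, Dock10, RT1-Da, Naaa and Gzmm, also named below, did not pass with it. None of these genes passed without the third fish oil liver, with quantile normalization or with a pseudocount of 1.

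The 12 genes of smallest p among those higher with fish oil were Dusp2, Laptm5, Tpd52l1, Cd7, Spn, Coro1a, Dock10, Cxcr3, RT1-Da, Naaa, Hdc and Gzmm. Several of them encode proteins of leukocytes. Laptm5, a lysosomal membrane protein of blood cells, had signals of 51.7, 38.0 and 48.8 on sunflower oil and 121.7, 124.5 and 286.0 on fish oil. Every fish oil liver lay above every sunflower oil liver, by 1.54 ± 0.24 in the mean (2.91 fold, adjusted p = 0.0502, or 0.0407 with the replicate block) and by 1.17 without the third fish oil liver. Its other probe set gave 1.15. Coro1a, an actin regulator of white blood cells, had 50.0, 22.5 and 19.5 on sunflower oil and 82.4, 160.9 and 359.1 on fish oil. The groups did not overlap, although the first sunflower and the first fish oil liver lay close, and the difference was 2.06 ± 0.35 (adjusted p = 0.055), or 1.56 without the third fish oil liver. Spn, the CD43 sialoglycoprotein of T cells and other leukocytes, had 31.5, 9.9 and 8.8 against 49.7, 99.2 and 230.5. It differed by 1.98 ± 0.34 (adjusted p = 0.055) in the same order of livers.

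Genes of T and NK cells were dimmer. Cd7, a surface protein of these cells, had signals of 21.3, 14.2 and 28.7 on sunflower oil and 52.1, 55.1 and 44.1 on fish oil. Here the third fish oil liver was the lowest of its group, and the difference of 0.84 ± 0.14 (adjusted p = 0.055) was 0.91 without it. Cxcr3, the receptor for the interferon-induced chemokines Cxcl9 and Cxcl10, had 16.7, 13.2 and 18.1 against 33.1, 37.3 and 52.0. Gzmm, a granzyme of NK cells, had 16.5, 8.6 and 5.9 against 31.8, 39.4 and 57.0. For both genes all 3 fish oil livers lay above all 3 sunflower oil livers, by 0.82 ± 0.15 and 1.15 ± 0.22, each with an adjusted p of 0.0693. With the replicate block that of Cxcr3 was 0.0445. Dusp2, a nuclear phosphatase that dampens MAP kinases in activated leukocytes, had 1.4, 2.9 and 7.6 against 23.1, 34.0 and 46.1. Its sunflower oil values lay under the pseudocount of 16, which shrinks the difference, and the latter was 1.32 ± 0.20 (adjusted p = 0.0502, or 0.0407 with the replicate block).

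The others of the 12 were Dock10, an exchange factor for small GTPases, Naaa, a lysosomal amidase of N-acylethanolamines, Tpd52l1 and Hdc. Dock10 differed by 1.23 ± 0.22 and Naaa by 1.20 ± 0.22, both without overlap, but the second probe set of Dock10 was dim and gave 0.24. Tpd52l1, a member of the tumour protein D52 family, had signals of 35.2, 62.5 and 53.1 on sunflower oil and 199.7, 280.6 and 168.2 on fish oil. The third fish oil liver was again the lowest of its group, and the difference was 1.80 ± 0.29 (3.49 fold, adjusted p = 0.055, or 0.0429 with the replicate block), or 1.95 without it. Livers on virgin olive oil had 68.8, 65.2 and 27.4, just outside the range of the sunflower oil livers on either side.

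**Figure D1:**
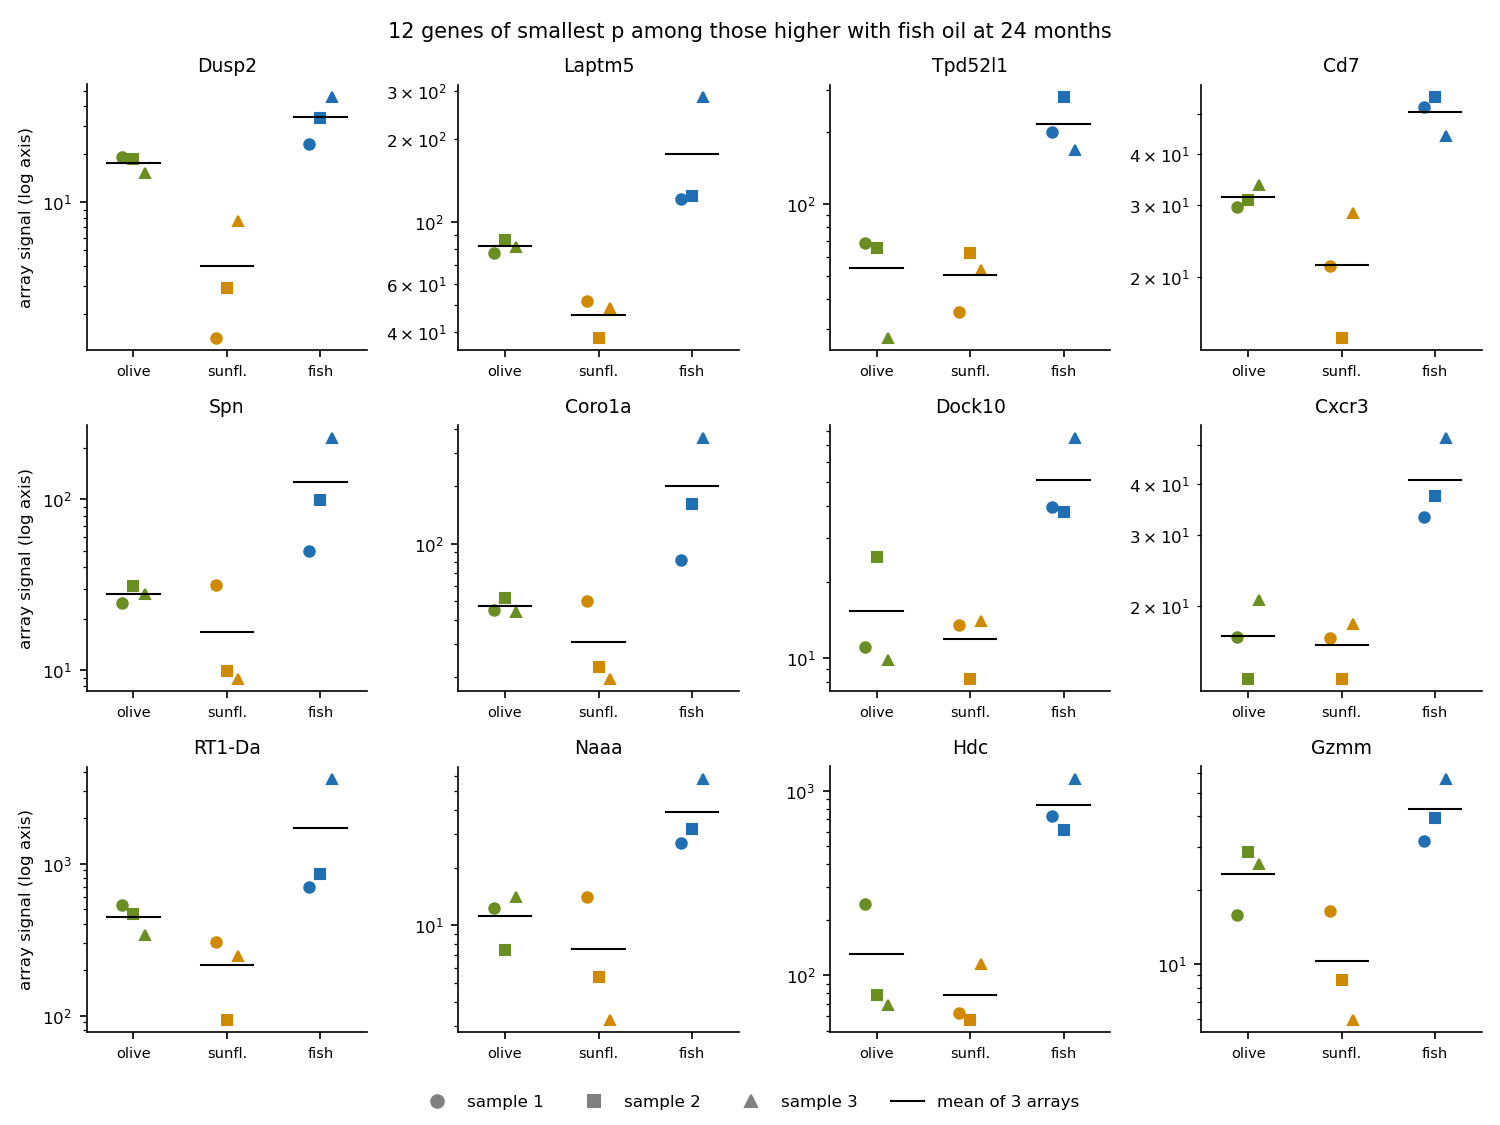
Array signal (log axis, no unit) of the 12 genes of smallest p among those higher with fish oil at 24 months, for 3 livers each on olive, sunflower and fish oil; symbols mark the sample number and bars the mean of 3 arrays. Every fish oil liver lies above every sunflower oil liver in each panel, and the third fish oil liver (triangle) is the highest of its group in 10 panels but the lowest for Tpd52l1 and Cd7. The genes were picked by p in this same comparison, which favours groups that do not overlap.

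Hdc, the enzyme that makes histamine from histidine, had the largest difference among the 12. Its signals were 62.1, 57.0 and 115.0 on sunflower oil and 734.2, 609.8 and 1164.4 on fish oil. The lowest fish oil liver was thus well above the highest sunflower oil liver, and the difference was 3.18 ± 0.59 (9.05 fold, adjusted p = 0.0693, or 0.0407 with the replicate block), or 2.92 without the third fish oil liver. Younger livers, at 6 months, had 36.9, 18.1 and 33.4 on sunflower oil and 553.9, 63.5 and 328.4 on fish oil. The groups did not overlap at that age either, and the difference was 2.48 ± 0.59 (adjusted p = 0.926, or 0.0477 without the second fish oil liver of that age, where 2 genes passed). The difference at 24 months exceeded that at 6 months by 0.69 (adjusted p = 0.953). Olive oil livers at 24 months had 244.6, 78.0 and 68.9.

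Acot1, a cytosolic acyl-CoA thioesterase and a well-known PPAR-alpha target, had the largest difference of any gene in the 36 lists. Its signals were 109.1, 205.3 and 151.1 on sunflower oil and 2742.6, 2733.0 and 1965.1 on fish oil. All fish oil livers were far above all sunflower oil livers, with a difference of 3.89 ± 1.38 (14.8 fold) and a 95% interval from 0.96 to 6.82. Olive oil livers of the same age had 94.6, 82.8 and 149.9, close to the sunflower oil livers. The adjusted p was 0.354 in the fit over 18 arrays, 0.000448 with the replicate block and 0.000617 in the fit over the 9 arrays at 24 months, in which the standard error was 0.26 in place of 1.38. It was the only gene to pass in that fit (1 of 14217, 0.00703%). Over all alternatives its adjusted p ran from 3.1e-05 to 0.74. The arrays at 6 months entered the fit over 18 arrays: sunflower oil livers had 644.7, 0.5 and 332.6 and fish oil livers 2727.6, 53.5 and 2688.1 at that age. In both of those groups the second sample was far below the others.

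Most other genes of the PPAR-alpha and fatty acid oxidation list overlapped between the oils. Of 35 measured, 2 were higher (Acot1 and Acot3) and 1 was lower (Cyp4a8) at an unadjusted p of 0.05, the same genes did not overlap, and the median difference was 0.10, against 0.01 for all genes. These counts are near the shares of all genes, 6.23% higher and 2.98% lower. Acot3, a peroxisomal thioesterase next to Acot1 in the genome, had signals of 259.9, 160.0 and 210.4 on sunflower oil and 1156.3, 482.6 and 292.9 on fish oil. The third fish oil liver lay just above the highest sunflower oil liver, and the difference was 1.35 ± 0.57 (adjusted p = 0.483). Their relative, mitochondrial Acot2, differed by 0.98 ± 0.59 and its groups overlapped. Cyp4a8, a fatty acid hydroxylase, had 440.1, 979.2 and 560.6 on sunflower oil and 194.8, 328.2 and 230.1 on fish oil, all of the latter lower. Pex11a, which divides peroxisomes, had 486.9, 194.1 and 1008.4 against 1607.2, 846.7 and 550.5, and the groups overlapped.

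Classical targets of the receptor overlapped between the oils. Cyp4a1 differed by 0.60 ± 0.68, Ehhadh of peroxisomal beta-oxidation by 0.61 ± 0.57, Pdk4 of pyruvate dehydrogenase control by 0.43 ± 0.38 and Angptl4, an inhibitor of lipoprotein lipase, by 0.41 ± 0.34. The hepatokine Fgf21 differed by -0.41 ± 0.75 and the carnitine palmitoyltransferase Cpt1a by -0.16 ± 0.30. Ppara itself had 40.1, 17.1 and 15.8 on sunflower oil and 59.0, 32.7 and 15.2 on fish oil, a difference of 0.32 ± 0.44. The third fish oil liver was the highest of the 6 arrays for none of the 35 genes and the lowest for 11, and without it the median was 0.22. Promoter windows of 300 bases were held for Acot1, Acot2 and Acot3, and none contains the nuclear receptor motif AGGTCA, which 16.2% of 33469 rat promoters contain on either strand.

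**Figure D2:**
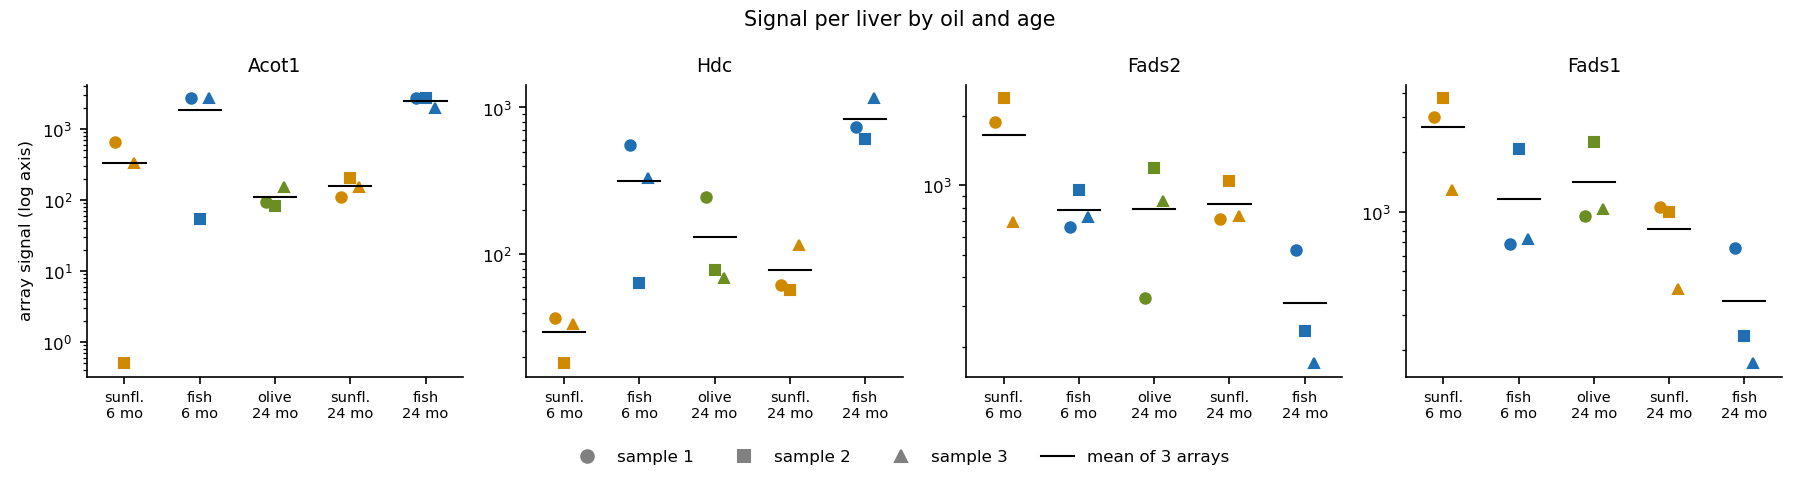
Array signal (log axis, no unit) of Acot1, Hdc, Fads2 and Fads1 in single livers by oil and age in months (mo), with bars for the mean of 3 arrays. Fish oil livers at 24 months lie above all sunflower and olive oil livers of that age for Acot1 and Hdc, and below the sunflower oil livers for Fads2; for Fads1 the groups overlap.

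Genes of fatty acid synthesis and desaturation were mostly lower with fish oil. Of 27 measured, 22 were below 0 and 5 were lower without overlap, against 5.81% of all genes for the latter, and the median was -0.38. At an unadjusted p of 0.05, 3 were lower and 1 was higher, against 2.98% and 6.23% of all genes. Without the third fish oil liver 10 were lower without overlap, against 9.9% of all genes, and the median was -0.49. At that p 1 was lower without it, against 1.95% of all genes. Fads2, the delta-6 desaturase that starts the conversion of linoleic acid to longer chains, had 716.8, 1040.8 and 734.4 on sunflower oil and 524.4, 234.4 and 169.3 on fish oil. All fish oil livers were lower, with a difference of -1.51 ± 0.52 (2.85 fold, adjusted p = 0.325), or -1.18 without the third. Fads1, the delta-5 desaturase, had 1052.5, 995.0 and 406.8 against 657.2, 234.9 and 171.4. The third sunflower oil liver lay inside the fish oil range, and the difference was -1.28 ± 0.56 (adjusted p = 0.50). Elovl2, an elongase of long-chain polyunsaturated fatty acids, differed by -0.69 ± 0.32. At 6 months the differences were -0.91 for Fads2 and -1.26 for Fads1, and neither passed.

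Enzymes that make saturated and monounsaturated fat varied widely between the livers of a group. Fasn, the fatty acid synthase, had 228.2, 644.8 and 495.4 on sunflower oil and 84.5, 91.1 and 400.1 on fish oil. The third fish oil liver was the high one of its group, and the difference of -1.40 ± 1.33 became -2.07 without it. Acaca, the carboxylase before it, had 266.6, 611.9 and 615.3 against 150.7, 140.1 and 494.5, in the same pattern. Elovl6, the elongase of palmitate, had 94.3, 252.9 and 321.6 against 52.0, 36.5 and 91.7, without overlap and with a difference of -1.57 ± 1.00. Acly, the citrate lyase that supplies acetyl-CoA, had 569.2, 1193.1 and 892.3 against 440.8, 358.8 and 538.5, also without overlap.

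Thrsp, a lipogenic nuclear protein induced by thyroid hormone and carbohydrate, had 1279.9, 3565.9 and 1976.5 against 651.5, 413.1 and 769.8. It had the most negative difference of the list, -1.79 ± 1.28, without overlap. Dgat1, which makes triglycerides, had 318.5, 321.4 and 355.6 against 315.8, 299.3 and 245.7, lower without overlap by a narrow margin (-0.21 ± 0.20). All other members of this list overlapped between the oils, except Scd2. Srebf1, which encodes SREBP-1c, had 558.1, 598.2 and 199.4 on sunflower oil and 186.3, 371.4 and 142.7 on fish oil. Scd, the delta-9 desaturase, spanned 222.6 to 6131.1 on sunflower oil and 1332.4 to 4317.1 with fish oil, a difference of 0.66 ± 2.51. Malic enzyme Me1 differed by -0.23 ± 0.91. The only member higher at an unadjusted p of 0.05 was Scd2, with 30.4, 21.3 and 20.3 against 50.3, 107.7 and 141.6 (1.45 ± 0.33, adjusted p = 0.114). Its 3 dimmer probe sets gave between -0.21 and 0.14.

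Genes of antigen presentation were the list with the largest share of members higher with fish oil. Of 22 measured, 16 were higher and 0 lower at an unadjusted p of 0.05, 13 did not overlap, and the median was 1.10, against 6.23%, 7.68% and 0.01 over all genes. Without the third fish oil liver 11 were higher at that p, against 3.89% of all genes, and the median was 0.58. MHC class II molecules present peptides to CD4 T cells and are made by B cells, dendritic cells and activated macrophages. RT1-Da is an alpha chain, RT1-Db1 a beta chain, RT1-Ba and RT1-Bb a second pair, and Cd74 the invariant chain that guides them to endosomes. These genes are close relatives in a polymorphic family, so that a probe set may read more than 1 of them.

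The class II genes are read through conserved promoter boxes, one of which holds the CCAAT motif. Of the class II genes measured, RT1-Da, RT1-Ba, RT1-Bb and RT1-Db1 shared their lowest liver (the second on sunflower oil) and their highest (the third on fish oil). For them the stretch from 130 bases before the start to 20 bases after its first base is shown from RefSeq, 5′ to 3′ on the gene's strand, with every CCAAT or its complement ATTGG in capitals. The windows lie on chromosome 20 of the GRCr8 build, RT1-Da at chr20:4515285-4515434 and RT1-Ba at chr20:4576927-4577076 on the plus strand, RT1-Bb at chr20:4604099-4604248 and RT1-Db1 at chr20:4560143-4560292 on the minus strand.
RT1-Da: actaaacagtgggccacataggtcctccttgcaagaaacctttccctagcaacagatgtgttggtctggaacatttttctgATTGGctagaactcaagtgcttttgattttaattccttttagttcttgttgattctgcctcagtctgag
RT1-Ba: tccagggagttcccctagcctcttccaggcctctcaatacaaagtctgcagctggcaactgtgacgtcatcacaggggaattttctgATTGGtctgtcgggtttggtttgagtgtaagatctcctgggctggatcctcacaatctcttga
RT1-Bb: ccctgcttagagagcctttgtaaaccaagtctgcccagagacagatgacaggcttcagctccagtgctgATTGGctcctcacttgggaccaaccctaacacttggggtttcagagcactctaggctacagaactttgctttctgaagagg
RT1-Db1: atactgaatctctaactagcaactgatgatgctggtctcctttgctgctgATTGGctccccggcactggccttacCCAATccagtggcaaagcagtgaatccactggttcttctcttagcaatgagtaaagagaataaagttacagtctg
In each of the 4, ATTGG stands within the letters CTGATTGG, whose first base is 52, 46, 64 and 83 bases before the start of RT1-Da, RT1-Ba, RT1-Bb and RT1-Db1. This longer motif, chosen after these sequences were seen, is held on either strand by 3.5% of 33469 promoter windows of 300 bases, and the CCAAT motif alone by 37.5%. Of the 12 named genes higher with fish oil, 10 had a window, and CTGATTGG was in 2 of them, RT1-Da and Hdc. A match is a description of these letters and not of a bound factor.

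RT1-Da had signals of 303.9, 93.0 and 244.6 on sunflower oil and 705.5, 847.0 and 3619.6 on fish oil. All fish oil livers were higher, with the third far above the others, and the difference was 2.65 ± 0.48 (6.29 fold, adjusted p = 0.0693), or 1.92 without that liver. Cd74 had 541.8, 147.6 and 346.0 against 1014.9, 1400.0 and 3979.5. The order of the livers was the same, and the difference was 2.49 ± 0.47 (5.61 fold, adjusted p = 0.0693), or 1.91 without the third fish oil liver. RT1-Db1 had 92.3, 33.4 and 79.5 against 160.1, 201.1 and 862.1, a difference of 2.01 ± 0.46, and its dimmer probe set gave 1.26. RT1-Ba had 136.2, 23.6 and 110.9 against 213.3, 298.9 and 1867.1 on its brightest probe set, a difference of 2.49 ± 0.65. Its 3 other probe sets gave 3.37, 0.29 and -0.09. RT1-Bb had 182.0, 1.5 and 64.9 against 177.8, 298.4 and 1273.8, and its groups overlapped. The second sunflower oil liver was the lowest of the 6 for each of these 5 genes.

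Ciita, the master regulator of class II transcription, had 18.6, 8.0 and 16 on sunflower oil and 24.3, 43.2 and 223.6 on fish oil. The difference of 1.48 ± 0.42 was 0.71 without the third fish oil liver. The peptide exchange chains RT1-DMa and RT1-DMb differed by 1.40 ± 0.41 and 1.13 ± 0.35, or 0.74 and 0.52 without it, and neither overlapped. On the class I side, the immunoproteasome subunit Psmb9 differed by 1.58 ± 0.46 and the peptide transporter Tap1 by 1.24 ± 0.40, both without overlap. The class I light chain B2m, among the brightest transcripts of the list, had a difference of -0.06 ± 0.11.

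Interferon response genes followed the same livers. Of 30 measured, 17 were higher and 0 lower at an unadjusted p of 0.05, 13 did not overlap, and the median was 0.83, against 6.23%, 7.68% and 0.01 over all genes. Without the third fish oil liver 9 were higher at that p, against 3.89% of all genes, and the median was 0.44. Mx1, an antiviral GTPase, had 29.6, 8.9 and 18.4 against 53.6, 58.6 and 93.2. The fish oil livers were all higher, by 1.29 ± 0.26 (adjusted p = 0.0808) and by 1.09 without the third. Irf7, an interferon regulatory factor, had 222.9, 76.9 and 90.0 against 261.4, 328.9 and 603.9, a difference of 1.55 ± 0.38. The chemokine Cxcl9 had 84.5, 64.3 and 91.5 against 213.3, 222.4 and 2351.4, and the guanylate-binding protein Gbp2 had 43.7, 15.9 and 21.9 against 81.7, 93.9 and 1339.9. Both were without overlap and far brighter in the third fish oil liver than in the other fish oil livers. Their differences were 2.41 ± 0.64 and 2.55 ± 0.68, or 1.29 and 1.32 without it. Irf1 and Isg15 overlapped between the groups.

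Ubd and Gpnmb, which are in none of the lists and are described because of their values, also followed these livers. Ubd, a ubiquitin-like modifier induced by interferon-gamma and tumour necrosis factor, had the largest difference of all 14217 genes, 5.51 ± 1.22 (adjusted p = 0.114). Its signals were 27.4, 9.4 and 33.0 on sunflower oil and 603.0, 1313.6 and 6222.7 on fish oil, while the olive oil livers of that age had 1215.2, 1170.7 and 30.6. Every fish oil liver lay far above every sunflower oil liver, and the olive oil livers were split between both levels. At 6 months Ubd had 3.6, 36.5 and 29.0 on sunflower oil and 156.4, 833.1 and 274.6 on fish oil, again without overlap (3.28 ± 1.22, adjusted p = 1.0). Gpnmb, a glycoprotein of lipid-laden macrophages, had 161.8, 83.1 and 107.6 against 262.1, 809.3 and 2926.5 at 24 months. The groups did not overlap, with a difference of 2.76 ± 0.54 (adjusted p = 0.074), and at 6 months the difference was -0.27.

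**Figure D3:**
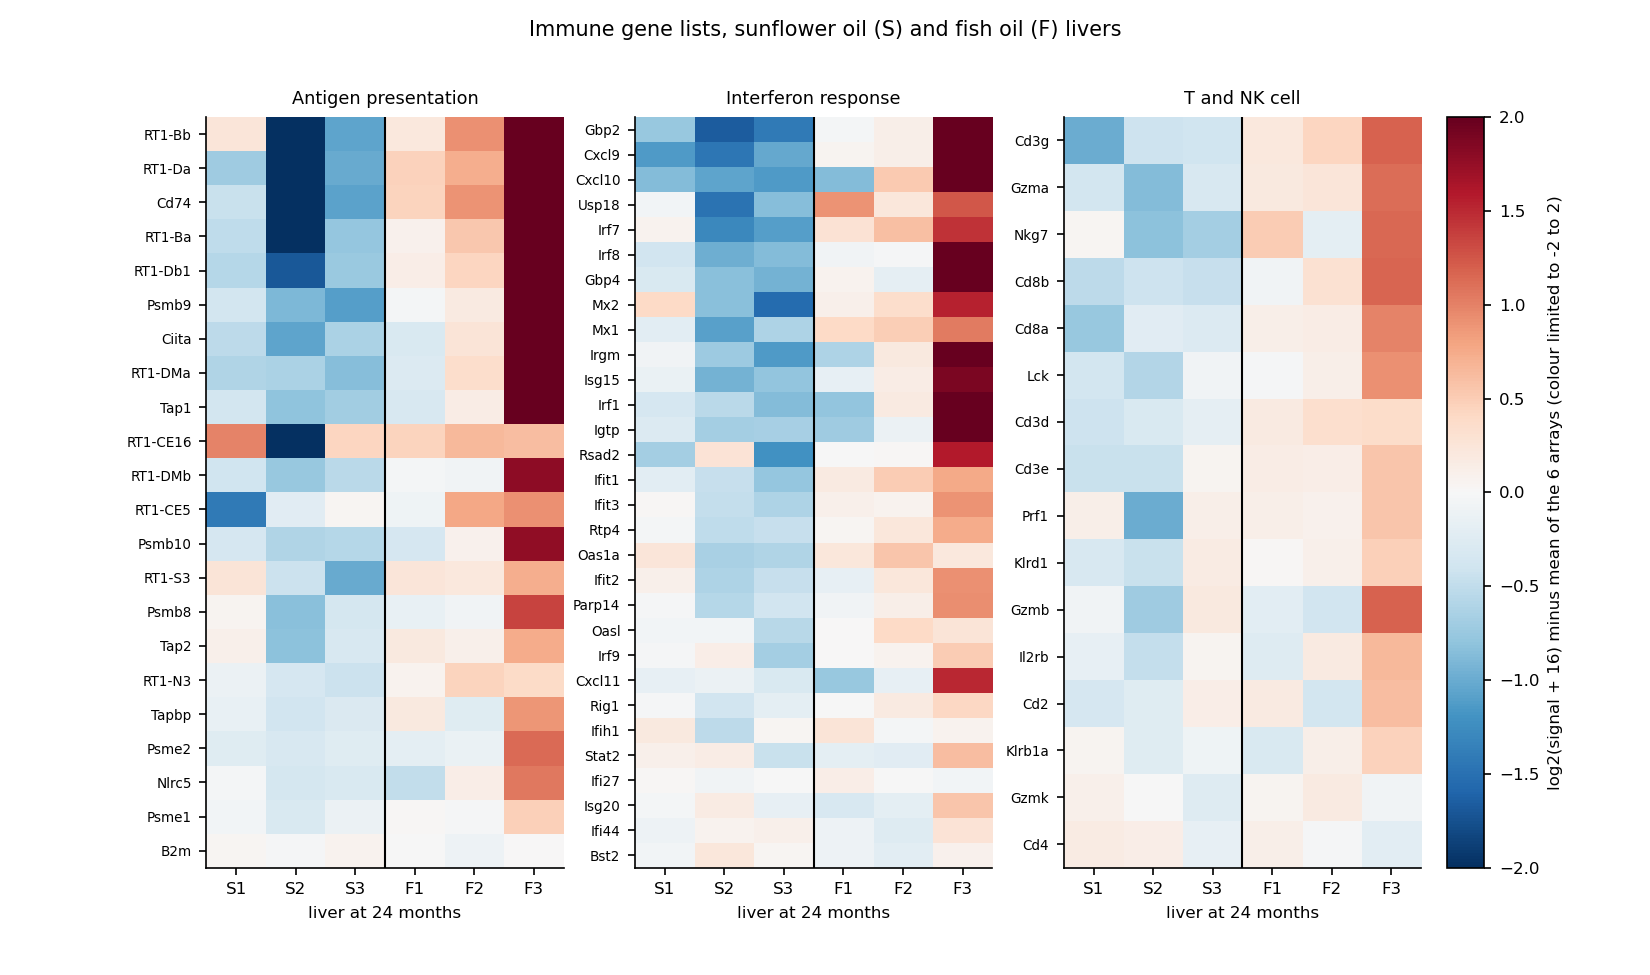
Colour shows log2(signal + 16) of each gene in single livers at 24 months minus the mean of the 6 arrays, with sunflower oil livers S1 to S3 left and fish oil livers F1 to F3 right of the line and colour limited to -2 and 2. F3 is the highest of the 6 for 19 of 22 antigen presentation, 25 of 30 interferon response and 14 of 16 T and NK cell genes.

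Marker lists of immune and other cells were summed in the same livers, and none passed its test after adjustment. Summed signals of 16 T and NK cell markers ran from 204 to 313 on sunflower oil and were 391, 412 and 768 on fish oil. Those of 11 monocyte and granulocyte markers ran from 1690 to 2096 and were 2152, 2823 and 8085. Those of 9 macrophage and Kupffer cell markers ran from 2359 to 3529.5 and were 4012, 3328 and 6338. Those of 13 stellate cell and fibroblast markers ran from 764 to 906 and were 921, 1147 and 1137. The macrophage list overlapped and the other 3 did not. For the stellate cell list the third fish oil liver did not lie above the second, and the median difference over its single genes was 0.12. The exact two-sided permutation test on mean log2 levels cannot give less than 0.1 with 3 against 3, and gave 0.1 for the T and NK cell, monocyte and stellate cell lists and 0.2 for macrophages (adjusted over 11 lists, 0.244 for each). B and plasma cell markers gave 0.7 (adjusted 0.77). The part of these cell types in the differences of single genes was not tested.

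Among the T and NK cell markers 9 of 16 were higher at an unadjusted p of 0.05 and 7 did not overlap, against 6.23% and 7.68% of all genes. Their median was 0.53, or 0.38 without the third fish oil liver. Granzyme Gzma had 27.2, 14.3 and 28.5 against 47.5, 49.3 and 105.0, and the T cell receptor subunit Cd3g had 3.6, 13.0 and 13.4 against 28.8, 36.2 and 71.6. Cd8a and Cd8b did not overlap either and were dim, whereas Cd4 differed by -0.09 ± 0.25. Of the 9 macrophage and Kupffer cell markers 4 were higher at that p and 3 (Cd5l, Adgre1 and Csf1r) did not overlap, with a median of 0.58, or 0.34 without the third fish oil liver. Cd5l had 481.7, 486.7 and 375.2 against 781.7, 773.2 and 1430.2, and Adgre1 68.0, 36.0 and 44.5 against 93.2, 92.0 and 161.2. Their differences were 1.07 ± 0.24 and 0.99 ± 0.25. The Kupffer cell lectin Clec4f and the scavenger receptor Cd163 overlapped, with 0.19 ± 0.26 and 0.04 ± 0.25, as did the complement genes C1qa, C1qb and C1qc. Of 11 monocyte and granulocyte markers 7 were higher at that p, and the median of 1.21 was 0.39 without the third fish oil liver. Lyz2, a lysozyme of myeloid cells, had 576.1, 551.6 and 394.9 against 789.6, 1098.3 and 3848.8. S100a8 had 158.0 in the third fish oil liver against 13.4 to 38.3 in the other 5, while Cd14 differed by -0.07 ± 0.22. B and plasma cell markers had a median of -0.07, and Cd79b, Mzb1 and Pou2af1 were under a signal of 16 in all 6 livers.

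Acute phase and complement genes had the median of all genes, 0.01 over 34 measured (-0.08 after centring of each array), with 7 higher and 2 lower at an unadjusted p of 0.05, against 6.23% and 2.98% of all genes. C1r, the complement protease, had 1695.3, 826.1 and 493.7 on sunflower oil and 2749.8, 1771.0 and 3144.5 on fish oil. All fish oil livers were higher, by 1.47 ± 0.32 (adjusted p = 0.114) and by 1.30 without the third. Lcn2, a siderophore-binding acute phase protein, had 42.4, 118.6 and 47.7 against 75.5, 489.5 and 5520.1. The groups overlapped, and the third fish oil liver was far above every other liver. The abundant acute phase proteins Hp, Fgg, Orm1 and Crp differed by between -0.12 and 0.00.

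Cell cycle genes were dim and mostly higher with fish oil. Of 32 measured, 12 were higher and 0 lower at an unadjusted p of 0.05, 11 did not overlap, and the median was 0.40, against 6.23%, 7.68% and 0.01 over all genes. If the third fish oil liver is left out, 10 were higher at that p, against 3.89% of all genes, and the median was 0.30. The minichromosome maintenance genes encode the helicase that opens replication origins. Mcm6 had 17.1, 1.2 and 19.2 against 53.2, 41.3 and 52.2, Mcm2 had 27.2, 30.8 and 14.9 against 46.8, 60.5 and 62.4, and Mcm5 had 26.2, 23.8 and 12.9 against 36.4, 35.3 and 56.3. None overlapped, and the differences were 1.25 ± 0.30, 0.86 ± 0.21 and 0.67 ± 0.17, each with an adjusted p of 0.137 or 0.143. The widest gap was that of Ccnd1, cyclin D1 of the G1 phase, with 271.8, 45.3 and 280.5 against 800.3, 987.9 and 816.5. It did not overlap, and its difference of 2.34 ± 0.75 was 2.38 without the third fish oil liver. Top2a, a topoisomerase of dividing cells, differed by 0.83 ± 0.23, but its other probe set gave 0.02. Mki67 and Pcna overlapped. The median of this list was 0.89 with a pseudocount of 1 and 0.16 with one of 64.

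Extracellular matrix genes had a median of 0.27 over 30 measured, with 5 higher and 1 lower at an unadjusted p of 0.05, against 6.23% and 2.98% of all genes. Col3a1, a fibrillar collagen, had 298.2, 137.8 and 150.7 against 304.7, 392.0 and 337.9. The groups did not overlap, although the first sunflower oil liver was close, and the difference was 0.84 ± 0.32. Tgfb1, the cytokine that drives matrix production, had 27.6, 2.8 and 2.1 against 34.1, 43.3 and 66.7. The laminin chain Lama2 was the member lower with fish oil, at 38.7, 55.7 and 58.6 against 24.7, 28.5 and 1.0. The endothelial glycoprotein Vwf had 23.4, 28.6 and 25.0 against 62.1, 60.8 and 61.4, a difference of 0.90 ± 0.40 (also 0.90 if the third fish oil liver is left out), while the 11 endothelial markers had a median of 0.11.

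The 12 genes of smallest p among those lower with fish oil were Dnase2b, Prodh, Scn10a, Arid3b, Tmem38b, Klc4, Kcnk1, Zfyve28, Mtmr7, Mfsd4b2l1, Arg1 and Apoa4. None overlapped, and their differences ran from -2.16 to -0.58 with adjusted p between 0.074 and 0.143. They were picked by p in this same comparison, which favours groups that do not overlap. Dnase2b, an acid endonuclease, had signals of 360.8, 651.4 and 296.5 on sunflower oil and 63.7, 141.9 and 53.4 on fish oil. All fish oil livers were well below the lowest sunflower oil liver, and the difference was -2.16 ± 0.43 (adjusted p = 0.074), or -1.93 without the third. Olive oil livers had 526.3, 144.2 and 184.9. Apoa4, an apolipoprotein of intestine and rodent liver, had 4881.4, 6779.5 and 5318.7 against 4163.9, 3025.3 and 3205.7, a difference of -0.71 ± 0.18 (adjusted p = 0.143). It was the only gene lower with fish oil that passed under any alternative, with an adjusted p of 0.0452 without the first fish oil liver (0.0452 to 0.56 over the alternatives). At 6 months its difference was -0.63.

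Amino acid and urea cycle genes held 2 of those 12. Of 33 measured, 12 were lower and 1 higher at an unadjusted p of 0.05, 15 were lower without overlap, and the median was -0.29, against 2.98%, 5.81% and 0.01 over all genes. Without the third fish oil liver 4 were lower at that p, against 1.95% of all genes, and the median was -0.15. Prodh, the proline dehydrogenase of mitochondria, had 618.5, 1630.2 and 606.1 on sunflower oil and 227.8, 257.7 and 158.3 on fish oil. All fish oil livers were lower, and the difference was -1.93 ± 0.39 (3.82 fold, adjusted p = 0.0808), or -1.75 without the third. A second, dim probe set gave -0.05. Gpt, the alanine aminotransferase, had 1961.6, 3255.0 and 2688.2 against 1209.7, 1303.3 and 523.8. It did not overlap and differed by -1.44 ± 0.40 (2.72 fold, adjusted p = 0.181), or -1.03 without the third.

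The urea cycle enzymes differed by less. Arg1, the arginase that releases urea, had 6667.5, 8646.0 and 8457.3 against 5662.6, 5256.6 and 4878.9. The groups did not overlap and the difference was -0.58 ± 0.15 (1.5 fold, adjusted p = 0.143), or -0.53 without the third fish oil liver. Ass1 and Asl, which form and split argininosuccinate, differed by -0.45 ± 0.17 and -0.54 ± 0.45 without overlap. Cps1, the entry enzyme, had 6080.6, 6878.7 and 6841.1 against 6023.1, 5299.9 and 4920.8, a difference of -0.29 ± 0.13. Its other probe set gave -0.55. Otc overlapped. The member higher with fish oil was the asparagine synthetase Asns, with 4.0, 14.9 and 22.0 against 32.5, 37.2 and 124.5.

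Methionine and folate-linked genes were lower in the same way. Of 22 measured, 6 were lower and 0 higher at an unadjusted p of 0.05, against 2.98% and 6.23% of all genes. Lower without overlap were 8, against 5.81% of all genes, and the median was -0.32. Without the third fish oil liver 1 was lower at that p, against 1.95% of all genes, and the median was -0.20. Bhmt, which remethylates homocysteine with betaine, had 2011.9, 7852.6 and 4387.5 against 3046.9, 2206.8 and 888.1, and overlapped. Gnmt, the glycine methyltransferase that uses up S-adenosylmethionine, had 3409.7, 4142.9 and 4000.0 against 3088.5, 2944.3 and 2263.7, without overlap. Mat1a, which makes S-adenosylmethionine, had 5311.8, 7292.7 and 5019.3 against 4616.3, 4655.3 and 4470.1, a difference of -0.34 ± 0.15.

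Among 23 genes of gluconeogenesis and glycolysis 3 were lower and 1 higher at an unadjusted p of 0.05, against 2.98% and 6.23% of all genes. Lower without overlap were 8, against 5.81% of all genes, and the median was -0.27. Without the third fish oil liver 4 were lower at that p, against 1.95% of all genes, and the median was -0.21. Tat, the tyrosine aminotransferase induced by glucocorticoids, had 1169.5, 1887.9 and 1545.6 against 1098.8, 579.0 and 548.0. Slc37a4, the glucose-6-phosphate transporter, had 1407.2, 1782.4 and 1188.2 against 905.7, 865.4 and 389.5. Both were lower in all fish oil livers, with differences of -1.08 ± 0.32 and -1.08 ± 0.34 (adjusted p = 0.243 and 0.263). Pck1, the rate-limiting enzyme of gluconeogenesis, differed by -0.21 ± 0.13. The serine dehydratase Sds had 1314.8 in the second sunflower oil liver and 0.9 to 65.2 in the other 5.

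Oxidative phosphorylation genes differed little but mostly in 1 direction. Of 49 measured, 48 were below 0, 22 were lower without overlap and 9 were lower at an unadjusted p of 0.05, against 5.81% and 2.98% of all genes, with a median of -0.27. Without the third fish oil liver 22 were lower without overlap, against 9.9% of all genes, and the median was -0.20. At that p 1 was lower without it, near the 1.95% of all genes. Differences ran from -0.75 for the complex I subunit Ndufb8 (205.4, 182.7 and 171.3 against 145.9, 87.9 and 87.5) to 0.27 for Cox5a. Cox8a of complex IV had 2866.1, 3558.7 and 3127.2 against 2256.1, 2558.8 and 2298.5, a difference of -0.42 ± 0.17 (adjusted p = 0.439). The third fish oil liver was the lowest of the 6 for 34 of the 49 genes. Centring each array on its median moved the median of all genes from 0.01 to -0.07 and that of this list to -0.36. Quantile normalization moved them to -0.02 and -0.19.

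**Figure D4:**
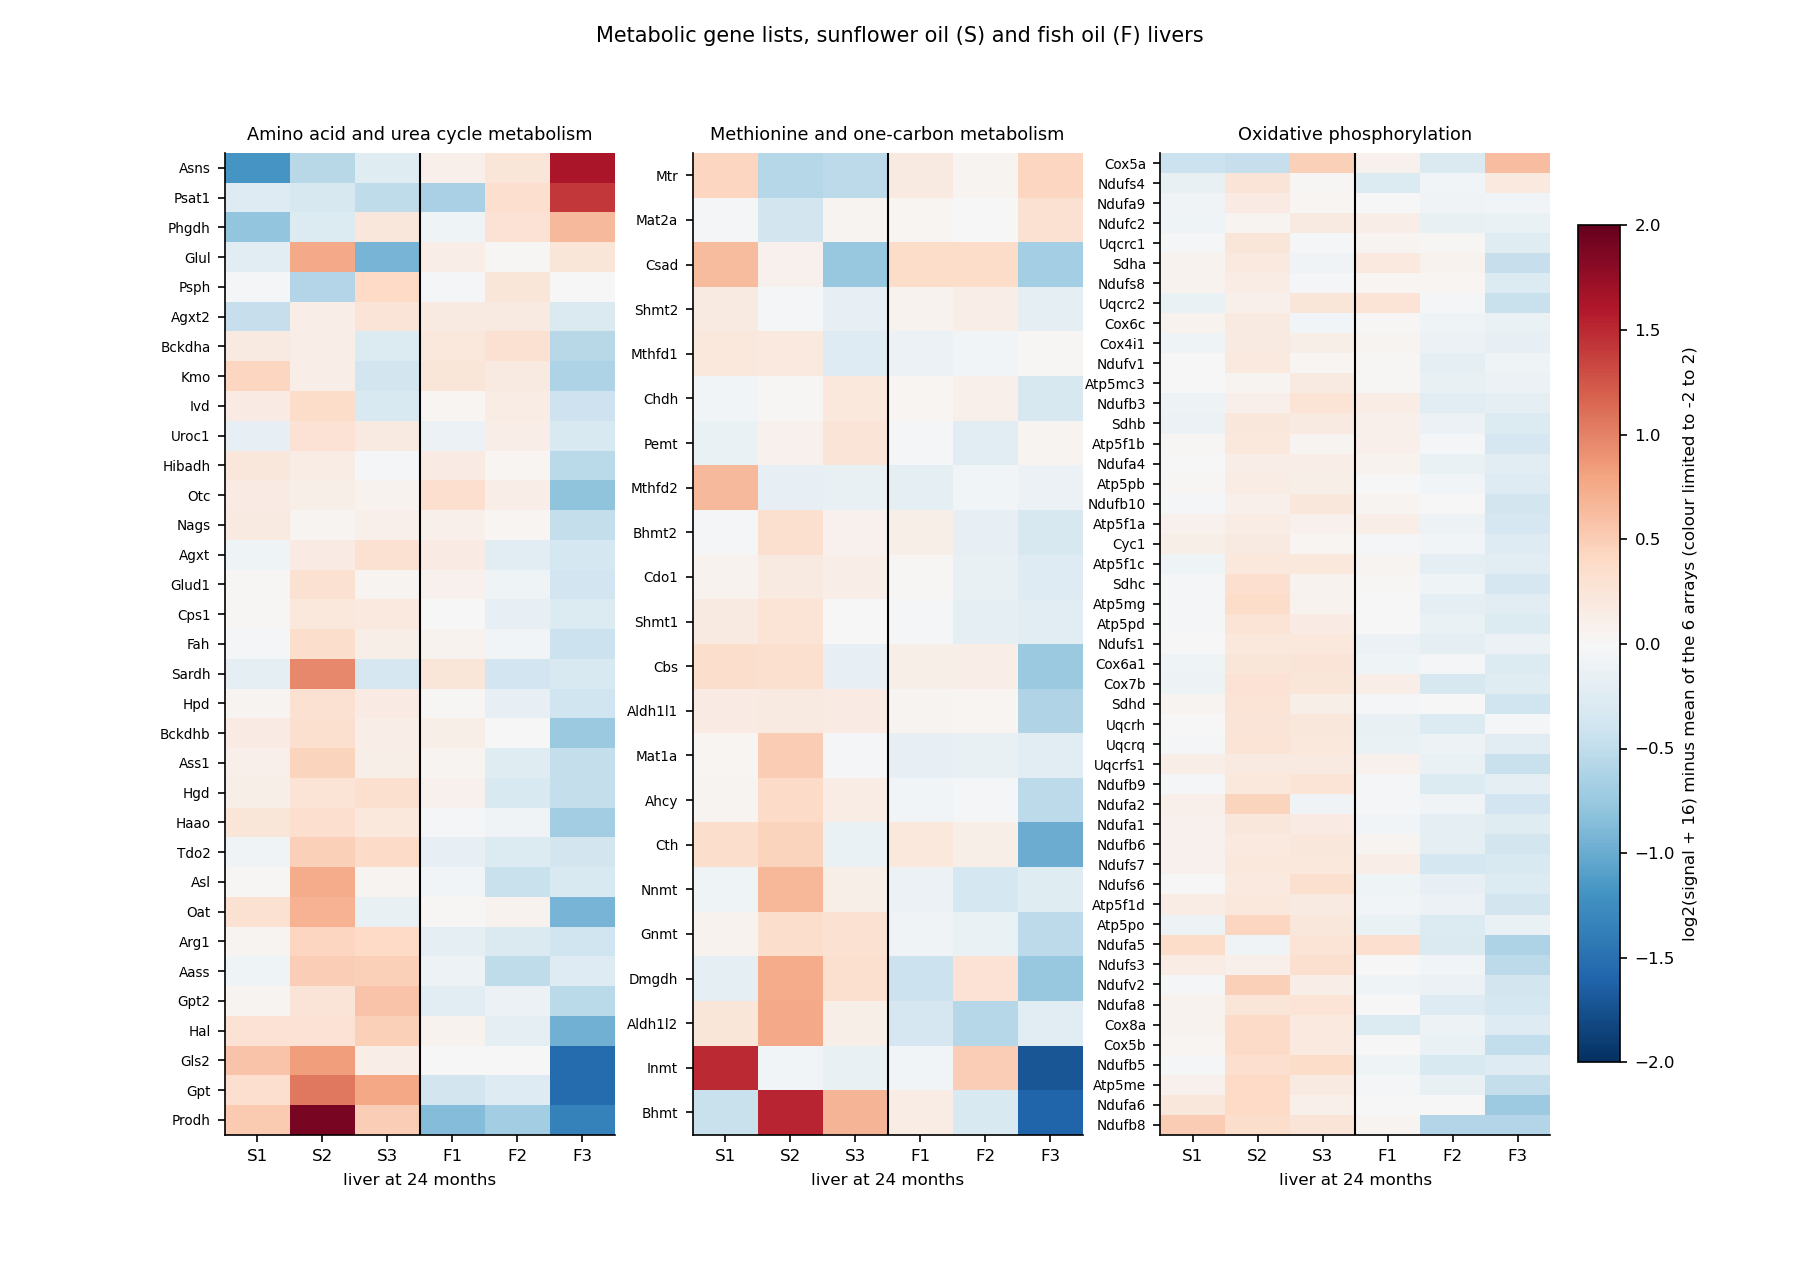
Colour shows log2(signal + 16) of each gene in single livers at 24 months minus the mean of the 6 arrays, with sunflower oil livers S1 to S3 left and fish oil livers F1 to F3 right of the line and colour limited to -2 and 2. F3 is the lowest of the 6 for 24 of 33 amino acid and urea cycle genes and 34 of 49 oxidative phosphorylation genes.

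For several sex-biased liver genes the third fish oil liver stood far from the other 5. Male rat liver expresses Cyp2c11, Cyp2c13 and Sult1e1 under pulsed growth hormone, and female liver expresses Cyp2c12. Sult1e1, the oestrogen sulfotransferase, had 7343.9, 6521.6 and 7044.1 on sunflower oil and 7412.0, 7459.2 and 354.6 on fish oil. Cyp2c12 had 120.2, 150 and 135.9 against 152.5, 317.0 and 5685.3. The third fish oil liver was the lowest of the 6 for 14 of 16 male-biased genes, whose median was -0.40 with it and 0.32 without it. Female-biased genes had no such common direction: it was the highest for 4 of 16 and the lowest for 2, and their median was -0.12 with it and -0.08 without it. Hao2, a female-biased hydroxy acid oxidase, had 460.2, 158.3 and 187.2 against 1066.3, 914.5 and 26.7, lowest in that liver. The xenobiotic genes also turned sign, from -0.17 to 0.13, as did eicosanoid genes, from -0.04 to 0.15. Cish, a growth hormone target that inhibits cytokine receptors, had 29.3, 52.6 and 29.1 against 75.9, 157.5 and 121.3, a difference of 1.32 ± 0.36 (adjusted p = 0.182) (1.28 if the third fish oil liver is left out).

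Several other lists are given here by their medians. Lipoprotein and lipid transport genes had a median of -0.17 over 26 measured, and 20 were below 0. At an unadjusted p of 0.05, 4 were lower and 2 higher, against 2.98% and 6.23% of all genes. Without the third fish oil liver 2 were lower at that p, against 1.95% of all genes, and the median was -0.11. Unfolded protein and stress genes had a median of 0.18, or 0.06 without that liver, and 22 of 29 were above 0. Cholesterol synthesis genes had a median of -0.08 over 18 measured with 0 at an unadjusted p of 0.05 in either direction. Bile acid genes had a median of -0.13; Cyp7a1, the hydroxylase that begins bile acid synthesis, had 258.1, 424.5 and 57.9 against 158.4, 33.7 and 87.3. Antioxidant genes had a median of -0.09, with Nqo1 differing by -0.30 ± 0.38 and Hmox1 by 0.60 ± 0.35, or 0.10 for Hmox1 without the third fish oil liver. Clock genes had a median of -0.21 over 18 measured. At an unadjusted p of 0.05, 2 of them were lower and 1 higher, against 2.98% and 6.23% of all genes. The clock-controlled Usp2 had 156.7, 364.7 and 333.4 against 138.1, 31.1 and 108.9. Autophagy, lysosome and proteasome genes had a median of -0.01.

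**Figure D5:**
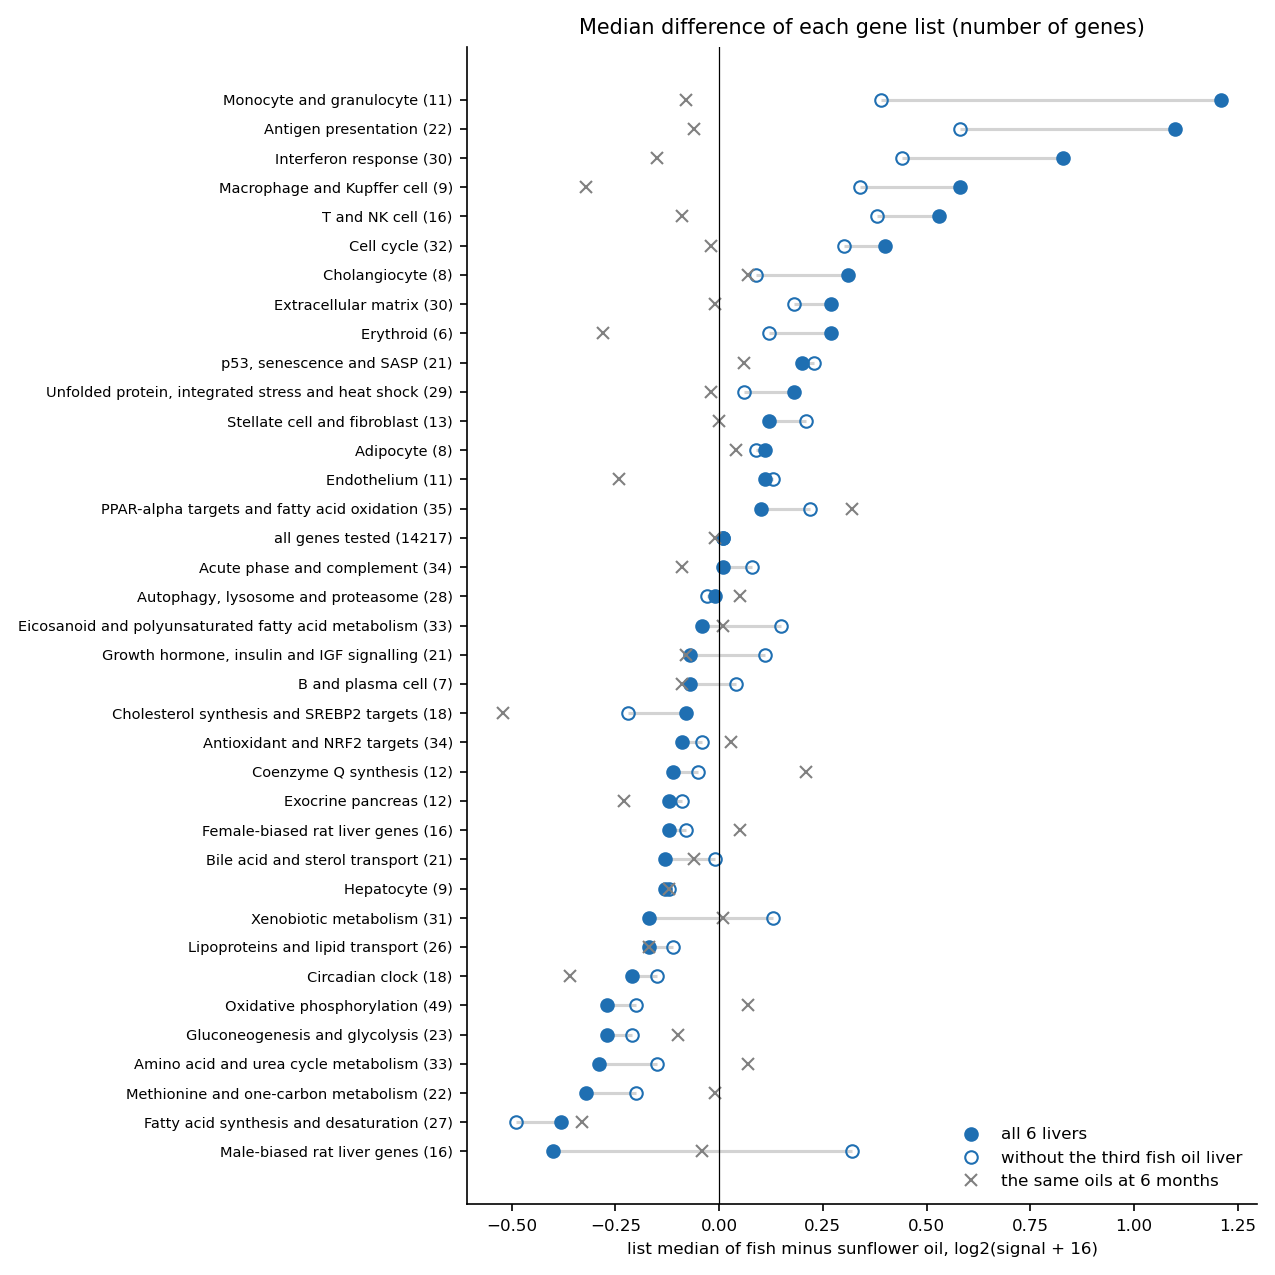
Median difference of each gene list, fish minus sunflower oil on the log2(signal + 16) scale, with all 6 livers at 24 months (filled), with the third fish oil liver left out (open), and at 6 months (cross); the number of measured genes is in brackets. Antigen presentation goes from 1.10 to 0.58 and male-biased genes from -0.40 to 0.32 when that liver is left out, while all genes stay at 0.01.

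At 6 months the same oils in the limma fit also gave 0 of 14217 genes past the threshold (0%), with 573 at an unadjusted p of 0.05 (4.03%) and a smallest adjusted p of 0.926. Leaving out the second fish oil liver of that age gave 2, Hdc and Aqp3. The limma test of the difference between the ages passed for 0 genes too (0%), or 12 without the first old fish oil liver and 1, Cd7, without the third old sunflower oil liver. At an unadjusted p of 0.05 it differed for 971 genes (6.83%): the difference was more positive at 24 months for 708 genes (4.98%) and more negative for 263 (1.85%). Antigen presentation had 11 of 22 genes and interferon response 12 of 30 among the former, and their medians at 6 months were -0.06 and -0.15. Amino acid and urea cycle genes had 7 of 33 among the latter, with a median of 0.07 at 6 months. Fatty acid synthesis had medians of -0.33 at 6 and -0.38 at 24 months and PPAR-alpha targets 0.32 and 0.10.

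The 5 genes of smallest p for a more positive difference at 24 months were Cd7, Dusp2, Naaa, Laptm5 and Cxcr3. Cd7 had 28.4, 31.0 and 33.1 on sunflower oil and 22.1, 18.3 and 18.4 on fish oil at 6 months, so that fish oil livers were all lower there and all higher at 24 months. The difference between the ages was 1.24 ± 0.20 (adjusted p = 0.171). Those more negative were Rbfa, Nudt19, Dnase2b, Mtmr7 and Sephs2. Nudt19, a peroxisomal CoA hydrolase, had 276.0, 281.7 and 234.3 against 331.8, 408.9 and 402.6 at 6 months and 340.7, 358.6 and 397.6 against 271.7, 203.1 and 304.5 at 24 months. It was higher with fish oil in all livers at the first age and lower in all at the second, with a difference of -0.99 ± 0.24 (adjusted p = 0.429).

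The olive oil livers at 24 months were compared with both groups, and these comparisons share the fish or sunflower oil arrays. For RT1-Da they had 534.5, 466.2 and 338.8, above the sunflower and below the fish oil livers, so that fish minus olive oil was 1.53 and sunflower minus olive oil -1.12. For Cd74 the values were 1.43 and -1.06. For Prodh they had 508.5, 401.8 and 674.4, with -1.23 and 0.70. For the antigen presentation list the medians were 0.57 and -0.49, for interferon response 0.51 and -0.17, for amino acid and urea cycle genes -0.18 and 0.05, and for oxidative phosphorylation -0.29 and -0.04.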

How the data were processed

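Liver RNA of 18 rats in 6 groups of 3 was measured on Affymetrix Rat Genome 230 2.0 arrays, 1 per animal, and groups were taken from the labels. The values are the authors' deposited intensity values for 31042 probe sets, linear, from 0.0 to 14085.0, with a 2% trimmed mean of 99.17 to 99.39 on each array. RMA and Partek are listed in the submitters' processing notes, with no version. RMA output is log2 with 1 shared distribution, unlike these values, and which software made them is not stated in what was used here. Per the labels' protocols, RNA was extracted on RNeasy columns and labelled with the GeneChip IVT kit. No detection calls were used, and 31.7% of gene values lay under 16.

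Values were taken as log2(signal + 16), and the brightest probe set with 1 symbol stood for a gene (14217 genes). Missing list genes were not analysed here. limma 3.58.1 in R 4.3.3 fitted 6 group means over 18 arrays (lmFit, eBayes, 12 residual and 4.32 prior degrees of freedom). Adjustment was by Benjamini-Hochberg over all genes, threshold 0.05, and the code was tested on simulated data. The fold scale understates the change of dim genes, and the number of arrays limits precision.

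Named were the 12 genes of smallest p in each direction, up to 4 members of smallest p in each of 36 lists, 26 core genes (22 measured), and for the age difference 5 genes each way. One predicted symbol was skipped. Any further list member named was picked with its value in view. The members and lists were chosen with earlier results of these data known. Promoter windows came from the RefSeq table of the GRCr8 build. Same-numbered samples of different oils deviated together at 6 months (r = 0.24, 0.46 and 0.31). The number was used as a block only in an alternative fit, where the count of called genes at 6 months stayed 0. The differences and standard errors given at 6 months and between the ages come from the fit without block. In that fit the shared deviation stayed in the residual variance. This variance is pooled over all groups and so enters the standard errors at 24 months too. Python 3.11.15, pandas 2.3.3 and scipy 1.17.1 were used for counts and permutation tests. The alternatives tried are given in the closing section.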

Additional observations from a re-analysis of the deposited data

How the results depend on the processing

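The count of genes past the threshold at 24 months was 0 with a pseudocount of 1, quantile normalization, all probe sets and the mean over probe sets. It was 1 (Acot1) with the 9 arrays at 24 months only and with the 6 arrays compared only, 2 with a pseudocount of 64, 4 without the sample2 arrays at 6 months, 5 with median centring, 5 with a signal over 32 in at least 3 arrays, 5 with a trended robust variance, and 20 with array weights. Leaving out 1 of 18 arrays gave 0 to 137. All genes past the threshold were higher with fish oil, except Apoa4 without the first fish oil liver. At 6 months the count was 0 in the other fits and 0 to 2 on leaving out 1 array. The difference between the ages gave 1 with array weights (Cd7) and 0 to 12 on leaving out 1 array. The cause of these differences was not tested. At 24 months the replicate numbers did not clearly pair the samples (r = 0.03, 0.04 and 0.04). Numbers 1 and 3 correlated best with their own number, and number 2 did not. With the replicate block 8 genes were called: Acot1, Cxcr3, Dusp2, Hdc, Laptm5, Myc, Prrg4 and Tpd52l1. The level of B and plasma cell markers turned from 0.07 to -0.03 without the third fish oil liver. Of 181 named genes 37 passed in at least 1 alternative. Over 5400 gene values 0 called values changed sign, and 20 uncalled ones did. Of 1079 list medians 30 moved by more than the spread between arrays. The list counts without single fish oil livers were added after the data were seen.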

Other observations

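Without the first fish oil liver at 24 months, the 137 genes past the threshold included 7 of 22 antigen presentation, 4 of 30 interferon response, 4 of 11 monocyte and granulocyte, 2 of 16 T and NK cell and 1 of 9 macrophage and Kupffer cell genes, and 0 of 49 oxidative phosphorylation, 0 of 33 amino acid and urea cycle and 0 of 32 cell cycle genes. Over all genes the share in that fit was 0.964%. This fit leaves the third fish oil liver as 1 of 2 in its group. The leukocyte genes Ptprc, Itgb2, Lcp1 and Tyrobp, named after their values were seen, were among them.

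Senescence and secretory genes had a median of 0.20 over 21 measured, or 0.23 without the third fish oil liver. Mmp12, a macrophage elastase, had signals of 12.9, 1.9 and 4.7 on sunflower oil and 13.6, 143.5 and 174.8 on fish oil at 24 months. The first fish oil liver lay just above the sunflower oil livers. Ccl2, a monocyte chemokine, had 11.4, 19.6 and 16.9 against 18.2, 85.4 and 263.4, and Atf3, a stress-induced transcription factor, had 4.9, 10.7 and 8.6 against 23.6, 52.2 and 103.1. The first fish oil liver was the lowest of its group for all 3 genes. Akr1b7, an aldose reductase, had 113.8, 681.3 and 28 against 99.7, 340.3 and 2165.3, and overlapped.

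Ugt2b, a UDP-glucuronosyltransferase, had the most negative difference of all genes, -2.82 ± 2.88. Its livers were split between a low and a high level on sunflower and on fish oil. The 3 olive oil livers at 24 months were all high, and those at 6 months were not looked at here. Signals at 24 months were 9.6, 6079.0 and 5850.5 on sunflower oil, 5.9, 5069.9 and 7.3 on fish oil and 5468.6, 6112.5 and 5215.5 on olive oil. At 6 months they were 4939.3, 12.5 and 17.7 on sunflower oil and 5678.1, 5758.7 and 3.9 on fish oil. None of these livers lay between the low and high levels. Gtse1, a regulator of microtubules in dividing cells, had 134.1, 140.3 and 269.6 on sunflower oil and 21.8, 6.1 and 119.9 on fish oil at 24 months, without overlap and against the direction of most cell cycle genes (-1.96 ± 0.68, adjusted p = 0.335). Both genes were singled out for their values.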
